A study of Rattus norvegicus with 138 samples.

Results

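The change in the transcriptome of volumetric muscle loss (VML) injured tibialis anterior (TA) muscle between 3 and 7 days post injury (DPI) was measured in rats that did not run. The 26 muscles were chosen by their labels alone, as injured, non-running, and collected at 3 or 7 DPI, and 16 were collected at 7 DPI and 10 at 3 DPI. They came from 29 of the 138 libraries of the series. Libraries with fewer than 7000 gene symbols above 1 TPM, a transcript abundance corrected for transcript length and scaled to a fixed total, were left out, which removed 3 second libraries of non-repaired muscles at 7 DPI with 3178 to 3692 such symbols. The 26 kept libraries, 1 for each muscle, had 10475 to 10927.

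All rats were inbred male Lewis rats of about 4 months, and each had a piece of the middle of the left TA muscle removed with a biopsy punch. Every operated rat was given buprenorphine for pain before surgery. At 3 DPI, 3 muscles had been left without repair and 7 had received a minced muscle graft (MMG), the rat's own excised tissue cut into small pieces and put back into the defect. At 7 DPI there were 8 muscles of each kind. At 3 DPI 8 of the 10 muscles, with all 3 non-repaired ones, came from rats numbered 9 to 24 and 2 from rats numbered 91 and up. At 7 DPI each of these ranges gave 8 of the 16 muscles, so day was unbalanced over rat number range. The 4 control muscles, labelled sham and day 0 and called unoperated by the study, are both legs of 2 rats and so not 4 independent animals, and contralateral muscles were the uninjured TA of operated rats. RNA came from homogenised TA muscle, so spared fibers beside the defect were read together with the wound. The authors quantified transcripts with Kallisto as TPM. This unit keeps no read counts, so the depth of each library is not known from these values, and the errors given are the spread between muscles. Symbols are listed in alphabetical order up to Tubb3, and later ones were not analysed here.

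After a muscle injury, neutrophils arrive first and are followed by monocytes that become macrophages and clear debris. Satellite cells, the stem cells of muscle, divide, differentiate and fuse into new fibers, which first make embryonic and neonatal forms of the contractile proteins. Fibroblasts lay down collagen and other matrix proteins at the same time, and after a large loss of tissue this matrix can remain as a scar.

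Genes were tested where 1 or more of the 4 repair-by-day groups averaged over 1 TPM. Of these 11058 genes, 790 (7.14%) were called between 7 and 3 DPI. A gene was called at a Benjamini-Hochberg adjusted p under 0.05 from limma on log2(TPM + 1), with repair as a covariate, and a log2 difference beyond 1. Of these, 270 (2.44%) rose and 520 (4.7%) fell from 3 to 7 DPI. The median log2 difference over all tested genes was -0.09, and with size factors in place of TPM scaling it was 0.01, with 321 genes higher and 416 lower. Macrophage and cell division genes fell most often among the lists examined, and developmental fiber genes (57.1% of those tested) rose most often, followed by tendon and cartilage (42.9%), adult sarcomere (42.4%), glycolysis (35.3%) and structural matrix genes (32.3%). Fold changes on this scale understate the change of genes with low TPM. In whole muscle, fewer cells of a type and less RNA per cell cannot be told apart, and the 26 injured muscles are of separate rats.

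**Figure D1:**
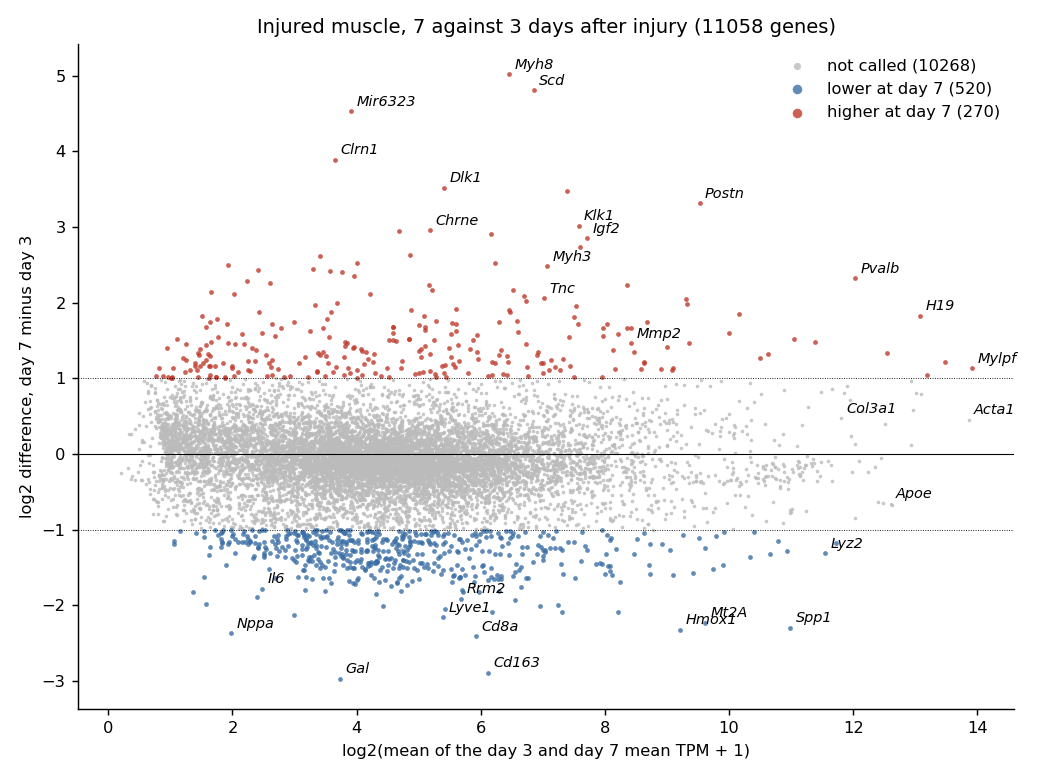
Each point is 1 of 11058 genes, placed by the log2 of its mean TPM + 1 over both days (x axis) and its log2 difference, 7 minus 3 DPI (y axis). The 270 genes called higher (red) reach a 32.4-fold rise for Myh8, and the 520 called lower (blue) reach -2.97 for Gal, while abundant genes such as Acta1 and Col3a1 stay between the dotted lines at 1 and -1.

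The tissue label was checked with 6 muscle markers, Acta1, Ckm, Myh4, Mylpf, Tnnc2 and Des. Their summed level was 20361 to 50622 TPM at 3 DPI (median 43666) and 42184 to 103144 TPM at 7 DPI (median 63733), against 166199 to 218223 TPM in the 4 control muscles. All 6 were present in every group, and their summed share of the RNA was higher at 7 than at 3 DPI while that of many other genes was lower. Its part in the changes below was not tested. Ribosomal RNA took 0.075% to 1.05% of TPM at 3 DPI and 0.08% to 16.7% at 7 DPI, the highest in non-repaired replicate 1. This muscle comes from rat 11, whose 2 contralateral libraries carry different days in their labels, and without it 807 genes were called. Hbb, a hemoglobin chain of red blood cells that was looked at after its values were seen, was at 40906 TPM in non-repaired replicate 3 and 20920 TPM in MMG replicate 1 of 3 DPI, against 1285 to 4547 TPM in the other 8 muscles of that day. At 7 DPI it ran from 842 to 15962 TPM, the highest in non-repaired replicate 6, and it was not called (log2 difference -0.68, SE 0.50). Without the 3 muscles of highest Hbb 747 genes were called, 242 higher and 505 lower. Pearson's r across genes was 0.967 to 0.997 between muscles of the same day and 0.939 to 0.989 between muscles of different days.

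Of 24 tested members of the monocyte and macrophage list, 18 fell and 0 rose, with a median log2 difference of -1.44. Cd163, the scavenger receptor for haptoglobin and hemoglobin, was at 84.3, 112 and 177 TPM (lowest, median and highest) at 3 DPI and at 7.56, 14.9 and 21.5 TPM at 7 DPI. The 2 days did not overlap, and the muscles with the highest level at 3 DPI were MMG replicates 1 and 2. The log2 difference was -2.90 with a standard error (SE) of 0.14 (adjusted p = 4.88e-15), and control muscles averaged 1.18 TPM. Mrc1, the mannose receptor, went from a median of 140 to 37.4 TPM (log2 difference -1.93, SE 0.15). Csf1r, the receptor for macrophage colony-stimulating factor, went from 234 to 74.1 TPM, and Itgam, an integrin of myeloid cells, from 56.5 to 20.5 TPM, both without overlap.

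Lysozyme (Lyz2), the most abundant listed macrophage gene, went from a median of 4210 to 1868 TPM and fell by 1.31 on the log2 scale (SE 0.22, adjusted p = 1.07e-05). Cd68, a lysosomal glycoprotein of macrophages, fell from a median of 385 to 135 TPM (log2 difference -1.48, SE 0.20). Both overlapped between days in some muscles. The lowest Lyz2 values at 7 DPI, 451 and 514 TPM, belonged to non-repaired replicates 8 and 7.

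The subunits of complement C1q, made largely by tissue macrophages, did not pass the threshold. C1qa went from a median of 411 to 286 TPM (log2 difference -0.37, SE 0.17, adjusted p = 0.0635), and C1qc gave -0.24 (SE 0.16). Ccr2, the receptor that draws monocytes out of the blood, gave -0.71. The 6 listed members that were not called had log2 differences between -0.71 and -0.24. Clec10a, a galactose-binding lectin of macrophages and dendritic cells, went from 212, 238 and 325 TPM to 26.7, 56.0 and 96.0 TPM without overlap (log2 difference -2.09, SE 0.16). Lyve1, a hyaluronan receptor of lymphatic endothelium and of some macrophages, fell by 2.16 on the log2 scale, from a median of 58.6 to 13.1 TPM. It was the 1 called gene of 29 in the endothelial and mural list (3.45% lower, against 4.7% of all tested genes). In that list Pecam1 gave 0.05 and Prox1, the lymphatic transcription factor, gave 0.08. At an adjusted p alone 9 genes of that list were higher and 4 lower.

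**Figure D2:**
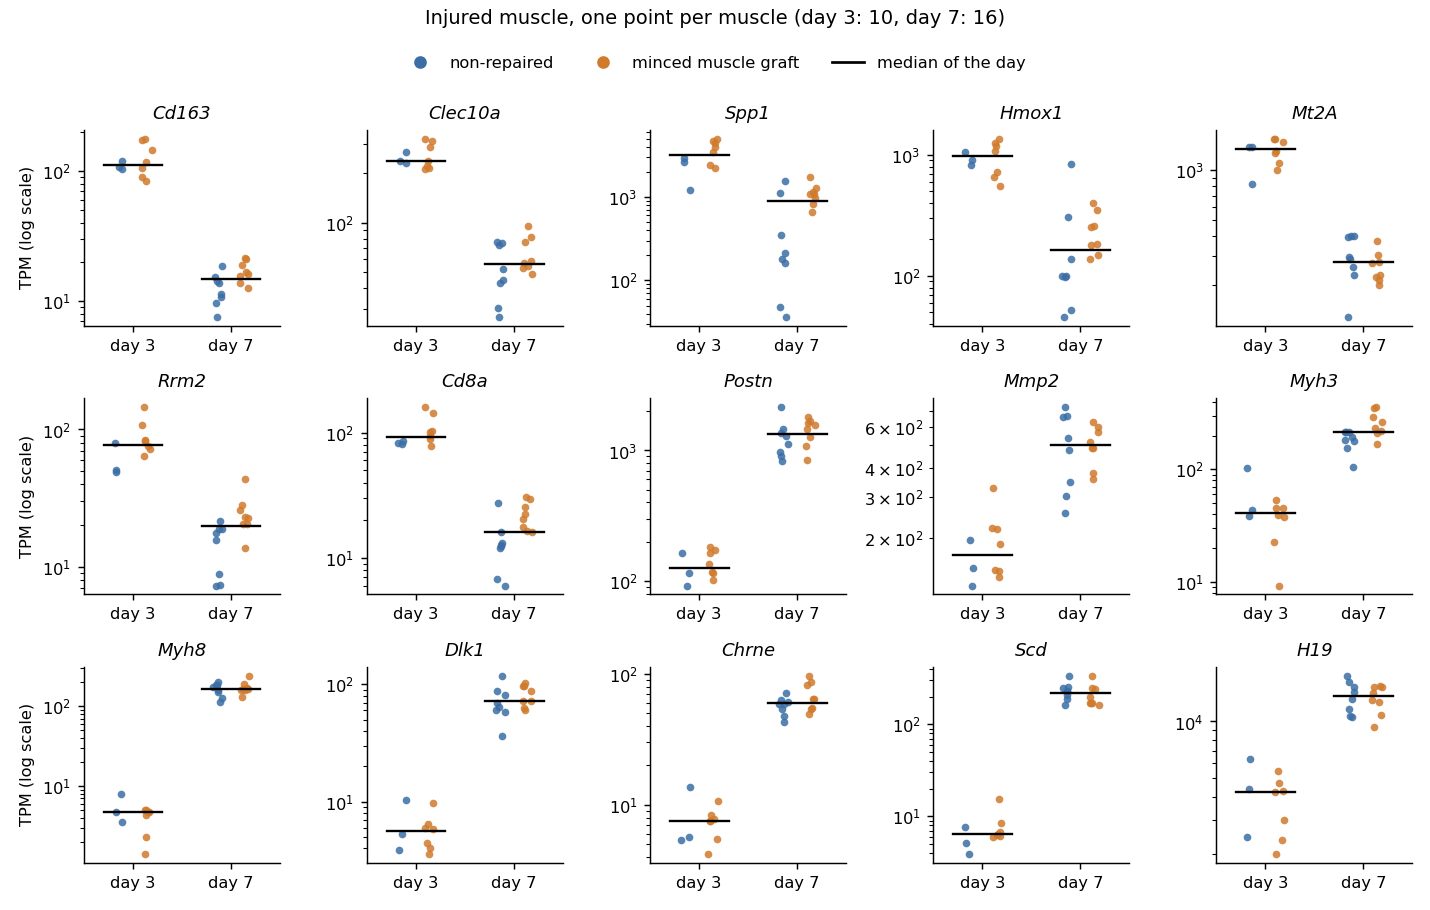
TPM of 15 genes on log axes, 1 point for each muscle, non-repaired in blue and minced graft in orange, with a bar at the median of the 10 muscles of 3 DPI and of the 16 of 7 DPI. Cd163 lies at 84.3 to 177 TPM at 3 DPI and at 7.56 to 21.5 TPM at 7 DPI, and Myh8 at 1.4 to 8.01 and then at 114 to 244 TPM, while Spp1 and Hmox1 overlap between the days.

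Of 24 genes of phagocytosis and lysosomes, 9 fell and 1 rose, with a median log2 difference of -0.74. Spp1 (osteopontin), a secreted matrix protein made by wound macrophages, was at 1215, 3200 and 4973 TPM at 3 DPI and at 36.4, 894 and 1719 TPM at 7 DPI. The days overlapped, and at 7 DPI the non-repaired muscles alone ran from 36.4 to 1535 TPM while the MMG muscles lay between 664 and 1719 TPM. Spp1 fell by 2.29 on the log2 scale (SE 0.45, adjusted p = 9.35e-05). Gpnmb, a glycoprotein of lipid-laden macrophages, fell from a median of 1908 to 693 TPM, and the lysosomal protease cathepsin B (Ctsb) from 2722 to 1104 TPM. Apoe, the most abundant gene of the list, was not called, with medians of 8172 and 4780 TPM (log2 difference -0.66, SE 0.18). Ctsk, the collagen-degrading cathepsin K, moved the other way and rose by 1.26 (SE 0.21), from a median of 91.3 to 225 TPM.

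Inflammatory cytokine and chemokine genes fell in 10 of 28 members and rose in 1, with a median log2 difference of -0.79. Il6, which drives the acute phase response, was at 3.04, 6.57 and 15.4 TPM at 3 DPI and at 0.36, 1.32 and 2.87 TPM at 7 DPI, without overlap (log2 difference -1.78, SE 0.20). Ccl20, a chemokine for dendritic cells and lymphocytes, fell by 2.13 (SE 0.27), and the monocyte chemokine Ccl2 fell by 1.43 (SE 0.26), from a median of 139 to 58.4 TPM. The chemokine Ccl5, which draws T cells, rose by 1.14 (SE 0.18), from 7.58 to 17.6 TPM, and Cxcl12, the most abundant of the list, was not called (0.36, SE 0.10). With rat number range added to the fit 6 members fell, and in the non-repaired muscles alone 5 did, where Ccl2 was not called (-1.53).

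Of 14 tested members of the neutrophil list 5 fell and 0 rose, with a median log2 difference of -0.77. The summed level of the list had a median of 357 TPM at 3 DPI and 176 TPM at 7 DPI, against 8.86 TPM in control muscle. Trem1, a receptor that amplifies myeloid activation, went from a median of 29.8 to 7.19 TPM without overlap (log2 difference -1.86, SE 0.19). S100a9, a calcium-binding alarmin of neutrophils, went from 62.2 to 22.4 TPM and fell by 1.69 (SE 0.30). The granule genes Elane, Mpo and Ltf were below 1 TPM in every repair-by-day group and were not tested. In contralateral muscle, where the median of all tested genes was -0.39, 4 of 11 tested members of the list fell and 0 rose. The list median there was -0.76.

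Genes listed for lymphocytes did not move together. Of 20 tested members of this list 2 fell (10%, against 4.7% of all tested genes) and 0 rose. The median log2 difference was 0.27. Cd8a was at 78.5, 91.9 and 160 TPM at 3 DPI and at 6.01, 16.2 and 30.7 TPM at 7 DPI, with no overlap, and fell by 2.41 (SE 0.18, adjusted p = 3.02e-11). Cd8b, its partner chain, which was looked up after the value of Cd8a was seen, fell by 1.68 (SE 0.16), from a median of 20.5 to 5.38 TPM. The CD3 chains of the T cell receptor complex lay far lower and were not called. Cd3e had medians of 2.76 and 3.52 TPM (log2 difference 0.24, SE 0.15), and Cd3g 5.92 and 6.21 TPM (0.17, SE 0.18). Cd4, which rat macrophages also carry, had medians of 151 and 91.6 TPM (-0.73, SE 0.12). Which cells carried Cd8a and Cd8b was not tested. The cytotoxic lymphocyte genes Klrd1, Gzmk and Nkg7 gave 0.84, 0.73 and 0.69. None of these 3 was called. At an adjusted p alone 10 members of the list were higher and 4 lower, and at a pseudocount of 0.1 TPM 3 rose.

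Of 11 MHC class II genes all had a negative log2 difference and 3 fell at the threshold, with a median of -0.39, and how reads were divided among these similar genes was not tested. They were Ctss, the protease that cuts the invariant chain (log2 difference -1.33, SE 0.18), and RT1-DMa and RT1-DMb (-1.33 and -1.23), which load peptides. The peptide-presenting chains RT1-Da, RT1-Ba, RT1-Bb and RT1-Db1 lay between -0.55 and -0.31, and the invariant chain Cd74 had medians of 829 and 639 TPM (-0.36, SE 0.15). None of these was called. Of 20 interferon response genes 1 fell (5%, against 4.7% of all tested genes), which was Ifi47, an interferon-inducible GTPase (-1.13, SE 0.13), and Ifi27, the most abundant, gave 0.09 (SE 0.13). In the complement list 4 of 18 fell and 2 rose, with a median of 0.00. The receptor for C5a, C5ar1, fell by 1.66 without overlap (medians 101 and 30.6 TPM), whereas Cfi, the protease that inactivates C3b, rose by 1.11 (medians 1.86 and 4.83 TPM). Cfi was not called in the minced graft muscles alone (0.94).

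**Figure D3:**
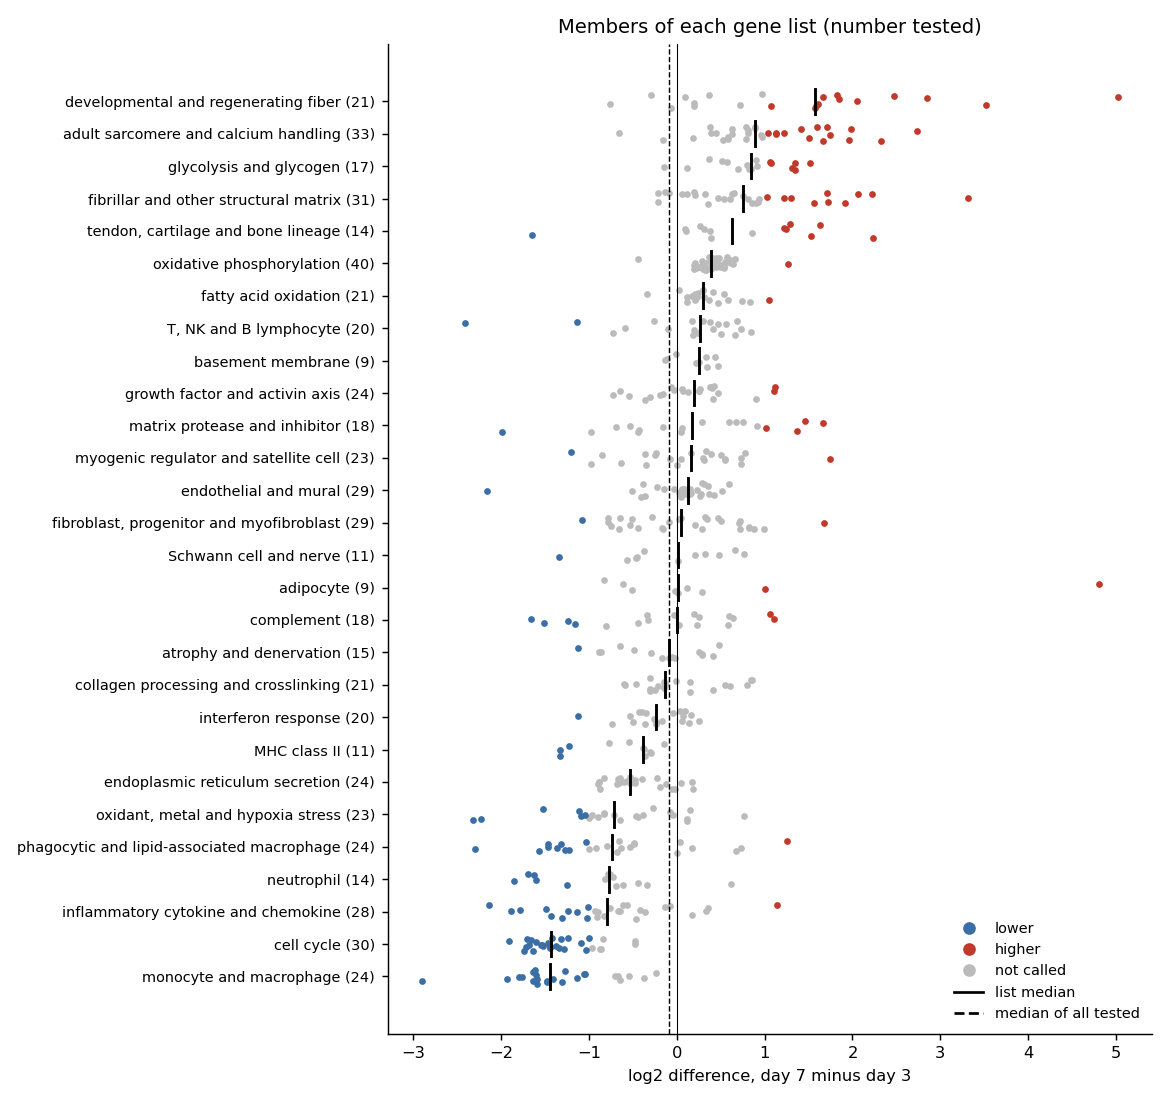
Log2 difference, 7 minus 3 DPI (x axis), of every tested member of 28 gene lists (rows, number tested in brackets), with the list median as a black bar and the median of all 11058 tested genes, -0.09, as a dashed line. The monocyte and macrophage list (median -1.44) and the cell cycle list (-1.43) lie at the low end, and the developmental and regenerating fiber list (1.58) at the high end.

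Stress genes that answer to heme, metals and low oxygen fell in 6 of 23 members and rose in 0, with a median of -0.71. Hmox1, the heme oxygenase that breaks down heme, was at 554, 973 and 1361 TPM at 3 DPI and at 45.7, 164 and 834 TPM at 7 DPI. The days overlapped through 1 muscle, non-repaired replicate 4, at 834 TPM, and the next highest value at 7 DPI was 400.3 TPM. Hmox1 fell by 2.32 (SE 0.34, adjusted p = 1.68e-06). The metallothioneins, which bind zinc and copper, fell without overlap. Mt2A went from a median of 1350 to 276 TPM (-2.23, SE 0.15) and Mt1 from 1299 to 462 TPM (-1.53, SE 0.15). These genes resemble each other in sequence, and how their shared reads were divided was not tested. With rat number range added to the fit 3 members of the list fell. Ldha, the most abundant, gave 0.12. In contralateral muscle, where the median of all tested genes was -0.39, 8 of 21 tested members of the list fell and 0 rose. The list median there was -0.79.

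The promoters of the metallothionein pair are shown because both genes moved in the same direction from a high level. Each is the 250 bases before the RefSeq start on build GRCr8, 5′ to 3′ on the strand of the gene. Capitals mark matches on either strand to TGCNCNC, where N is any base, a broad pattern used here for the metal response element. The Mt1 sequence is chr19:10832976-10833225 (minus strand) and holds 7 matches, and the Mt2A sequence is chr19:10838709-10838958 (minus strand) and holds 5. Of 27457 promoters of this length, 43.9% hold at least 1 match. A match is a description of the letters and not of binding.
Mt1: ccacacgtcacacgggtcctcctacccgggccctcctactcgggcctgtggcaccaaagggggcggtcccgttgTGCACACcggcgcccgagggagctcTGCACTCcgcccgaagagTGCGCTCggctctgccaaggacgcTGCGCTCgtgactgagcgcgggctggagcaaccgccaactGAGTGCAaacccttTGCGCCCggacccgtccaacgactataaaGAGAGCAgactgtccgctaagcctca
Mt2A: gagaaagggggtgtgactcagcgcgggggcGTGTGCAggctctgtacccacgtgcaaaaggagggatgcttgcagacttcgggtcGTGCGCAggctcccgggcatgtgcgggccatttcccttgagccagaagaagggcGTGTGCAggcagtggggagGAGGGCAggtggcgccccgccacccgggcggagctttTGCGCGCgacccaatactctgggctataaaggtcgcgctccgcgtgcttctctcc

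Of 30 members of the cell cycle list 24 fell and 0 rose, with a median log2 difference of -1.43, and 21 had no overlap between the 16 and the 10 muscles. Over all tested genes, 785 (7.1%) were lower without overlap and 245 (2.22%) were higher. Rrm2, the ribonucleotide reductase subunit that supplies DNA precursors, was at 48.8, 77.7 and 146 TPM at 3 DPI and at 7.28, 19.7 and 43.5 TPM at 7 DPI (log2 difference -1.91, SE 0.19, adjusted p = 3.27e-09). Cdc20, an activator of the anaphase-promoting complex, fell by 1.74 (SE 0.15), from a median of 41.5 to 10.6 TPM, and the mitotic kinase Plk1 by 1.72 (SE 0.16), from 22.9 to 5.90 TPM. The proliferation marker Mki67 fell by 1.53 (SE 0.13), and the replicative helicase subunits Mcm3, Mcm5 and Mcm6 by 1.45, 1.64 and 1.45. Pcna, the DNA clamp and the most abundant member, was not called, with medians of 158 and 86.4 TPM (-0.86, SE 0.07) and no overlap. Control muscles averaged 0.30 TPM for Rrm2, so the level at 7 DPI was still above it.

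The promoters of Cdc20 and Plk1 are shown because these 2, after Rrm2, had the largest falls of the list. Capitals mark the CCAAT box and the cell cycle homology region (TTTGAA), each on either strand, in the 250 bases before the RefSeq start on GRCr8. Cdc20 lies at chr5:137255800-137256049 (minus strand) and holds 2 CCAAT boxes and 1 TTTGAA, and Plk1 at chr1:186147408-186147657 (plus strand) and holds 1 CCAAT box and 0 TTTGAA. A promoter was found for 18 of the 24 called genes. Of these, 15 (83.3%) held a CCAAT box, against 34.3% of all 27457 promoters, and 6 (33.3%) held TTTGAA, against 16%. These shares are a description with no test.
Cdc20: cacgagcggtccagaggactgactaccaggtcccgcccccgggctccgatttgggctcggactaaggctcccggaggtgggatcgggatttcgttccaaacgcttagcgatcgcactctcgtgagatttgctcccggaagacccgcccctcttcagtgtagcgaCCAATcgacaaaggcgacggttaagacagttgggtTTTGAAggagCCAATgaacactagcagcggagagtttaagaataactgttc
Plk1: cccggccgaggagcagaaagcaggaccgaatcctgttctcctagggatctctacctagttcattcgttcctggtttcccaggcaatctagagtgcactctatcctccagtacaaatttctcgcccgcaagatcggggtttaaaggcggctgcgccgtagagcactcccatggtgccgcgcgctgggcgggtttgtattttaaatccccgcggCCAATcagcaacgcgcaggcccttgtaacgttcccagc

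Of 21 tested members of the developmental and regenerating fiber list 12 rose and 0 fell, with a median log2 difference of 1.58. Myh8, the neonatal myosin heavy chain, was at 1.4, 4.74 and 8.01 TPM at 3 DPI and at 114, 165 and 244 TPM at 7 DPI. The 2 days did not overlap, and the level of 3 DPI was near that of control muscle, which averaged 7.46 TPM. It was the largest rise among all called genes, 32.4-fold on the TPM + 1 scale (SE 0.15 in log2, adjusted p = 7.39e-19). Myh3, the embryonic myosin heavy chain, was already at 9.23, 41.1 and 103 TPM at 3 DPI and was at 105, 215 and 359 TPM at 7 DPI (2.48, SE 0.25). The embryonic light chain Myl4 rose by 2.05 (SE 0.20), from a median of 245 to 1011 TPM, and cardiac actin Actc1, used by young skeletal fibers, by 1.84 (SE 0.24). Sln (sarcolipin), a regulator of the calcium pump, was not called, with medians of 3013 and 4780 TPM (0.72, SE 0.16). Myosin heavy chain genes resemble each other in sequence, so some uncertainty remains in how reads were divided among them.

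Of the subunits of the muscle acetylcholine receptor, Chrna1, Chrnd and Chrng rose by 1.58, 1.66 and 1.61. Chrng, the fetal subunit, went from a median of 48.4 to 139 TPM. Chrne, which replaces it in adult receptors, went from 4.21, 7.51 and 13.6 TPM to 42.8, 60.3 and 97.3 TPM without overlap (2.96, SE 0.14), and control muscle averaged 5.84 TPM. Chrnb1, looked up after these values were seen, was not called (0.47, SE 0.16).

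Imprinted genes linked to fetal growth and listed with the developmental fiber genes were among these rises. Igf2, the fetal insulin-like growth factor, rose by 2.85 (SE 0.19), from a median of 52.8 to 346 TPM. Dlk1, a non-canonical Notch ligand, went from 3.59, 5.59 and 10.5 TPM to 36.2, 72.2 and 119 TPM without overlap (3.52, SE 0.17). H19, a long noncoding RNA and the most abundant member of the list, rose by 1.83 (SE 0.16), from 4245 to 13660 TPM. H19 also rose in contralateral muscle by 1.54 (means 2636 and 7867 TPM, adjusted p = 0.0002242).

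**Figure D4:**
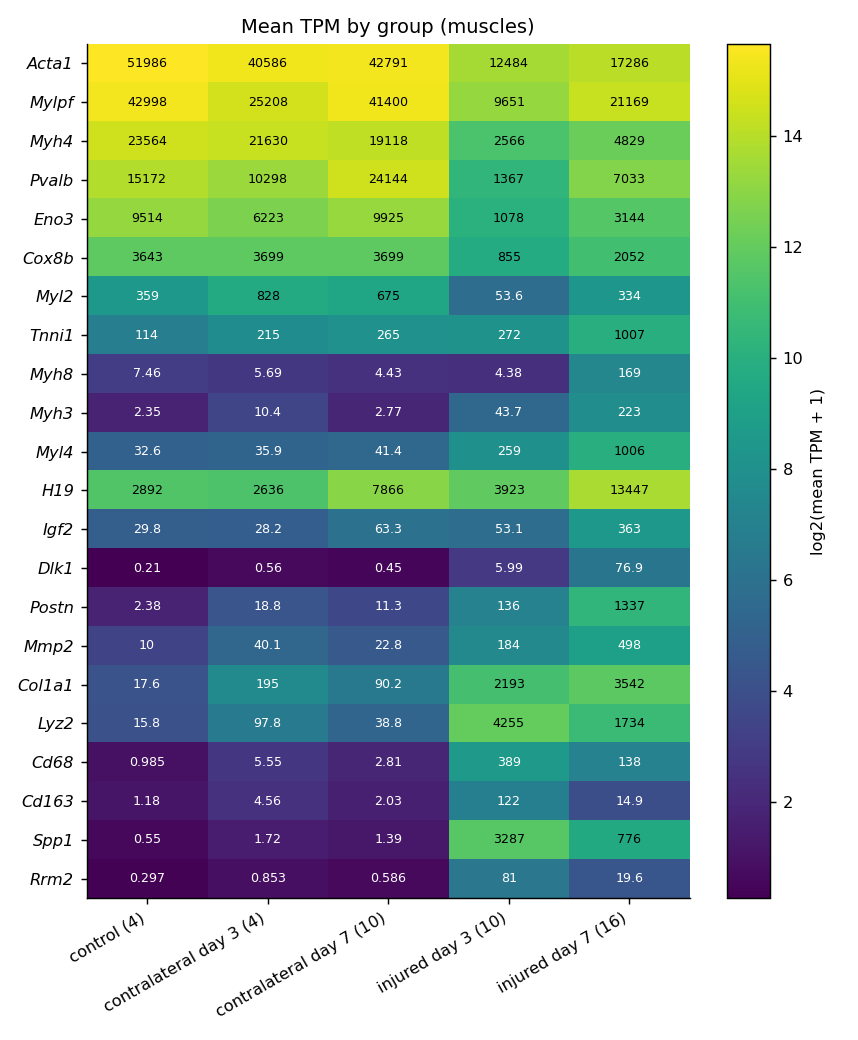
Mean TPM of 22 genes (rows) in control, contralateral and injured muscle (columns, number of muscles in brackets), coloured by log2(mean TPM + 1) and with the mean TPM printed in each cell. Myh8 is at 4.38 TPM in injured muscle at 3 DPI and at 169 TPM at 7 DPI, above the 7.46 TPM of control muscle, whereas Acta1 is at 12484 and 17286 TPM against 51986 TPM in control muscle.

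Adult contractile genes rose in 14 of 33 members and fell in 0, with a median of 0.90. The fast light chain Mylpf, the most abundant of the list by its mean over the 26 muscles, went from 4750, 10131 and 13073 TPM to 13906, 20832 and 30995 TPM without overlap (1.13, SE 0.15), against 42998 TPM in control muscle. Skeletal actin Acta1 was not called, with medians of 13461 and 16778 TPM (0.45, SE 0.16), nor were Ckm (0.59) and Myh4 (0.81). Pvalb (parvalbumin), a calcium buffer of fast fibers, rose by 2.33 (SE 0.20), from a median of 1288 to 6749 TPM. Among slow fiber genes, Tnni1, Tnnt1 and Tnnc1, the slow troponins, rose by 1.98, 1.96 and 1.74, and Myh7, the slow myosin, by 1.51 (SE 0.48). Tnni1 was at a mean of 1007 TPM at 7 DPI, against 114 TPM in control muscle. Myl2, the slow regulatory light chain, had the largest rise, 2.73, with the widest spread, since single muscles ran from 7.54 to 143 TPM at 3 DPI and from 39.5 to 861 TPM at 7 DPI (SE 0.57). In the non-repaired muscles alone 9 members of the list rose, and Mylpf was not called there (0.91).

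In the glycolysis and glycogen list 6 of 17 rose and 0 fell, with a median of 0.84, led by the muscle enolase Eno3, which went from a median of 1150 to 2981 TPM without overlap (1.52, SE 0.19). Gapdh, the most abundant, gave 0.12 (SE 0.11). Of 40 oxidative phosphorylation genes, 39 had a positive log2 difference, with a median of 0.39. Only Cox8b, a muscle subunit of cytochrome oxidase, was called (1.26, SE 0.16, medians 873 and 2108 TPM). This is 2.5% of the list, against 2.44% of all tested genes that rose. Of 21 fatty acid oxidation genes 1 rose (4.76%, against the same 2.44%), the acyl-CoA synthetase Acsl1 (1.05, SE 0.14). Acsl1 was not called with rat number range added to the fit (0.90) or in rats numbered 9 to 24 alone (0.83). In the atrophy list 1 of 15 fell (6.67%, against 4.7% of all tested genes), the ubiquitin ligase Trim63 (-1.12, SE 0.24, medians 449 and 215 TPM). In contralateral muscle, where the median of all tested genes was -0.39, 7 of 14 members fell and 0 rose, with a median of -0.86. Trim63 was not called in non-repaired injured muscles alone, and Fbxo32 was not called in injured muscle (-0.88, SE 0.31). Fbxo32 was called without non-repaired replicate 1 of 3 DPI (-1.05), with rat number range added to the fit (-1.15) and in rats numbered 9 to 24 alone (-1.51).

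Of 23 tested members of the myogenic regulator list, 1 rose and 1 fell, 4.35% each. Of all tested genes 2.44% rose and 4.7% fell. Tmem8c (myomaker), the membrane protein needed for myoblast fusion, rose from 8.63, 35.4 and 65.7 TPM to 71.3, 111 and 190 TPM without overlap (1.74, SE 0.21, adjusted p = 8.83e-08). Itga7, a laminin receptor of satellite cells and fibers, fell by 1.21 (SE 0.10), from a median of 169 to 69.6 TPM. Pax7, the satellite cell factor, had medians of 2.94 and 4.15 TPM (0.50, SE 0.16). The differentiation factors Myod1 (-0.85, SE 0.18) and Myog (-0.35, SE 0.19) and the late factor Myf6 (0.73, SE 0.18) were not called. Myod1 was called lower in rats numbered 9 to 24 alone (-1.15) and with rat number range added to the fit (-1.01). In non-repaired muscles alone 3 members of the list fell, and 2 fell with no covariate, with all libraries kept, in one fit over all groups and in both settings of rat number. At an adjusted p alone 11 were higher and 6 lower.

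Of 31 members of the structural matrix list 10 rose and 0 fell, with a median of 0.76. Postn (periostin), a matrix protein of wound fibroblasts, was at 92.4, 126 and 181 TPM at 3 DPI and at 832, 1328 and 2146 TPM at 7 DPI, with no overlap (3.31, SE 0.15, adjusted p = 2.76e-15). Mfap4, which binds elastic fibers, rose by 2.23 (SE 0.16) and the adhesion-modulating tenascin Tnc by 2.06 (SE 0.18), both without overlap. The fibrillar collagens were already high at 3 DPI. Col3a1 had medians of 2909 and 4264 TPM (0.47, SE 0.15) and Col1a1 of 2096 and 3592 TPM (0.81, SE 0.21), against means of 36.2 and 17.6 TPM in control muscle, and neither was called. Col1a1 was called in rats numbered 9 to 24 alone (1.04) and with rat number range added to the fit (1.02). Eln (elastin) gave 0.65 (SE 0.14).

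Of 21 genes of collagen processing and crosslinking 0 rose and 0 fell at the threshold, by limma, with a median of -0.14, and at an adjusted p alone 6 were higher and 3 lower. The chaperone Serpinh1 gave -0.31 (SE 0.16), the crosslinking enzyme Lox -0.31 (SE 0.17) and Bmp1, which trims procollagen, 0.80 (SE 0.12). Of 24 genes of endoplasmic reticulum secretion 0 were called, with a median of -0.53, and 16 were lower and 1 higher at an adjusted p alone. With all libraries kept 4 of them fell. Calr (calreticulin) had medians of 785 and 520 TPM (-0.61, SE 0.11). Of 9 basement membrane genes 0 were called, with a median of 0.26 and with 4 higher and 0 lower at an adjusted p alone.

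Of 18 tested matrix proteases and inhibitors 4 rose (22.2%, against 2.44% of all tested genes). The 1 that fell is 5.56%, against 4.7% of all tested genes. With a filter at 5 TPM 4 of 17 rose and 0 fell. Mmp2 (gelatinase A) rose by 1.46 (SE 0.17), from a median of 168 to 499 TPM, and its activator Mmp14 by 1.37 (SE 0.17). Mmp13, a collagenase, rose by 1.66 (SE 0.41), from 0.34, 1.29 and 7.72 TPM to 1.08, 7.88 and 39.3 TPM, and the highest value belonged to non-repaired replicate 3. In the non-repaired muscles alone 2 members rose, and Mmp13 was not called (2.14). Mmp10 (stromelysin 2) was at 1.24 to 8.81 TPM at 3 DPI and at 0.02 to 0.31 TPM at 7 DPI, without overlap (-1.99, SE 0.17). Mmp10 passed the filter on low values through 3 DPI alone. The inhibitor Timp2 gave 0.29 (SE 0.11).

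Of 29 tested members of the fibroblast list 1 rose and 1 fell, a share near the 7.14% of all tested genes, with a median of 0.05. At an adjusted p alone 11 were higher and 10 lower. Lrrc15, a marker of activated fibroblasts, rose by 1.68 (SE 0.20), from a median of 15.9 to 47.1 TPM, and Pdpn (podoplanin) fell by 1.08 (SE 0.16), from 124 to 59.6 TPM. Pdpn was not called without non-repaired replicate 1 of 3 DPI (-0.99), with size factors (-0.98), with rat number range added to the fit (-0.95) or in rats numbered 9 to 24 alone (-0.86). In these last 3 settings 2 members of the list rose and 0 fell. Acta2, the smooth muscle actin of myofibroblasts, had medians of 188 and 238 TPM (0.50, SE 0.17), Tgfb1 of 95.0 and 61.7 TPM (-0.51, SE 0.12) and Pdgfra of 54.4 and 32.0 TPM (-0.78, SE 0.12). Snai1, Id2, Id3 and Msc gave -0.17, -0.65, -0.28 and 0.34. None of these 7 was called.

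Tendon and cartilage genes rose in 6 of 14 tested members and fell in 1, with a median of 0.63. Tnmd (tenomodulin), a membrane protein of tendon cells, went from 3.95, 10.4 and 19.8 TPM to 6.87, 56.4 and 160 TPM (2.23, SE 0.37), with overlap through 2 non-repaired muscles of 7 DPI at 6.87 and 17.9 TPM. Thbs4, a thrombospondin of tendon matrix and the most abundant of the list, rose by 1.25 (SE 0.22). Prg4 (lubricin) fell by 1.65 without overlap, from a median of 116 to 35.9 TPM, and the tendon factor Scx was not called (0.26, SE 0.13). Among growth factors, Igfbp5 and Igfbp4 rose (1.12 and 1.11), and Mstn (myostatin) gave -0.64 (SE 0.17). Igfbp5 was not called without non-repaired replicate 1 of 3 DPI (0.99), with rat number range added to the fit (0.96) or in rats numbered 9 to 24 alone (0.72).

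In the nerve list 1 gene was called and in the fat list 2 were. In the Schwann cell list, Erbb3, a neuregulin receptor, fell by 1.34 without overlap (medians 28.3 and 10.1 TPM). It was the 1 called gene of 11 (9.09% lower, against 4.7% of all tested genes). In the adipocyte list, the fatty acid desaturase Scd was at 3.9, 6.40 and 15.6 TPM at 3 DPI and at 161, 219 and 339 TPM at 7 DPI, without overlap (4.81, SE 0.15, adjusted p = 1.50e-18). The water and glycerol channel Aqp7 also rose, at the threshold (1.00), and was not called in non-repaired muscles alone or with rat number range added to the fit, while the fat cell genes Adipoq and Pparg gave 0.11 and -0.02, and Fabp4, the most abundant, had medians of 911 and 586 TPM (-0.52, SE 0.13). At an adjusted p alone 2 members of this list were higher and 3 lower. Of lipid genes looked up after the value of Scd was seen, the transcription factor Srebf1 rose by 1.32 (SE 0.18), while Fasn, Acaca and Elovl6 gave -0.14, 0.05 and -0.15.

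Some of the largest changes lay outside these lists. Gal (galanin), a neuropeptide, was at 18.2, 22.3 and 26.2 TPM at 3 DPI and at 0.99, 2.04 and 2.94 TPM at 7 DPI, with all 16 muscles below all 10, and was the largest fall, -2.97 (SE 0.11, adjusted p = 2.04e-17). It was listed at 0 in every control and contralateral muscle. Nppa, atrial natriuretic peptide, fell by 2.37 (SE 0.19), from a median of 6.13 to 0.19 TPM. Hmga1, a chromatin protein of dividing cells, Rrad, a small GTPase of muscle, and Lst1, a leukocyte gene, fell by 2.08, 2.004 and 2.09 without overlap. Among rises, Klk1, a tissue kallikrein, went from a median of 42.2 to 345 TPM (3.01, SE 0.25), Clrn1 from 0.58 to 21.2 TPM (3.89, SE 0.18) and Tceal7 from 31.9 to 301 TPM (3.47, SE 0.24). LOC687707, a gene with no name of its own, rose by 2.95. The microRNA gene entry Mir6323 was listed at 0 in 9 of the 10 muscles of 3 DPI and at 3 TPM in the other, and at 7.94, 23.0 and 53.3 TPM at 7 DPI. Mir6323 and Clrn1 passed the filter on low values through 7 DPI alone, since Clrn1 was under 1 TPM in all 10 muscles of 3 DPI. Nppa passed it through 3 DPI alone and was under 1 TPM in all 16 muscles of 7 DPI.

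Whether the graft altered the step from 3 to 7 DPI was tested as an interaction of day with repair. Of 11058 genes 0 (0%) were called by limma, while 311 had an unadjusted p under 0.05, and the smallest adjusted p was 0.606. Cd163 was at 110 ± 8.46 TPM (SD, n = 3) in non-repaired and 127 ± 38.4 TPM (SD, n = 7) in MMG muscles at 3 DPI, and at 12.7 ± 3.56 and 17.1 ± 3.25 TPM (SD, n = 8 each) at 7 DPI. Postn was at 124 ± 36.5 and 141 ± 31.7 TPM at 3 DPI and at 1261 ± 422 and 1413 ± 324 TPM at 7 DPI. The interaction of Spp1 was 1.46 on the log2 scale (MMG minus non-repaired), with means of 2257 and 455 TPM without repair and 3728 and 1096 TPM with MMG, but its adjusted p was 1.00. The lowest unadjusted p belonged to Hsf2bp, with an interaction of 1.06 (SE 0.22). Left out in turn, non-repaired replicates 1 and 3 of 3 DPI gave 1 called entry each, Mir668 and Mir6332. With 3 non-repaired muscles at 3 DPI, a p that misses the threshold does not show that the arms acted alike.

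Injured muscles of running rats, which share no sample with the 26, gave a separate measurement with 14 muscles at 3 DPI and 8 at 7 DPI. There 869 of 11080 genes (7.84%) were called. Of the 270 genes that rose in non-running rats 233 rose in running rats (86.3% of the 270 and 70% of the 333), and of the 520 that fell 422 fell (81.2% of the 520 and 78.7% of the 536), and 0 were called in opposite directions. All 790 were tested in running rats, and 788 had the same sign. Myh8 gave 5.30, Scd 4.72, Postn 3.69, Cd163 -3.14 and Cd8a -2.80 in running rats. The MHC class II chains RT1-Da and RT1-Bb, which were not called, gave 0.35 and 0.51 there against -0.55 and -0.39 in non-running rats. The difference between the cohorts, tested as an interaction of day with running, gave 0 called genes of 11164 (0%) by limma, with 367 at an unadjusted p under 0.05 and a smallest adjusted p of 0.939.

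**Figure D5:**
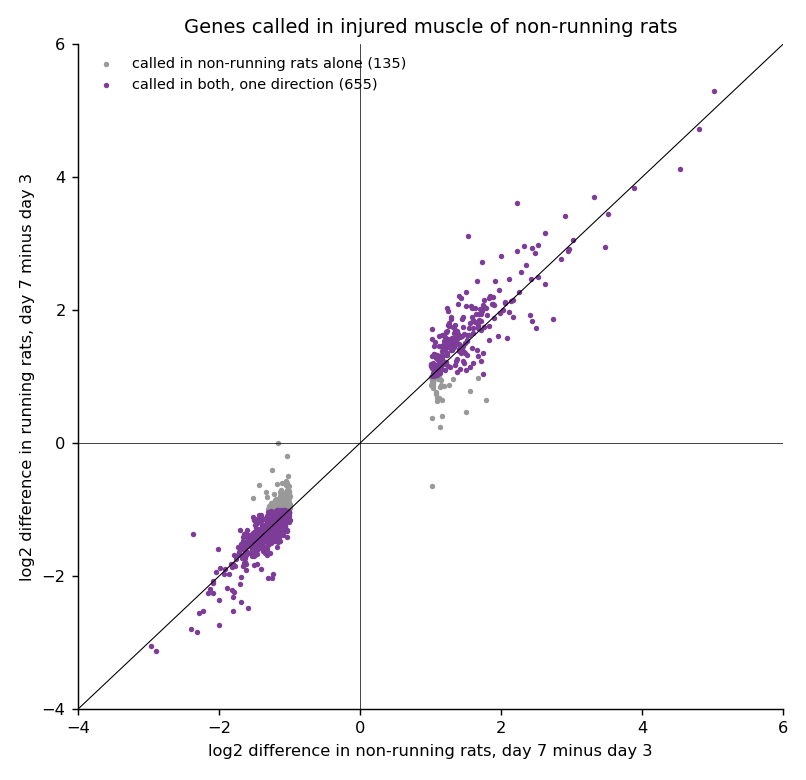
Log2 difference, 7 minus 3 DPI, of the 790 genes called in injured muscle of non-running rats (x axis) and its value in running rats (y axis), with the line of equality. The 655 genes in purple were called in both with the same sign and the 135 in grey in non-running rats alone, and all but 2 lie in the same quadrant pair.

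The contralateral TA of non-running rats, 4 muscles at 3 DPI and 10 at 7 DPI, gave 309 of 9771 genes (3.16%), of which 20 rose and 289 fell. This split depended on the scaling: the median of all tested genes was -0.39 on TPM as deposited and -0.01 after division by size factors, with which 71 rose and 51 fell. Of the 520 genes that fell in injured muscle 29 also fell in contralateral muscle (5.58% of the 520 and 10% of the 289), while of the 270 that rose 6 also rose there and 12 (4.44%) fell. Fbxo32, Pnpla7 and Arrdc2 had the largest contralateral falls (-2.44, -2.33 and -2.67), and Tfrc, G0s2 and the ribosomal Rn5s the largest rises (2.61, 2.02 and 2.31). Arrdc2 also fell in injured muscle (-1.43) and Tfrc, the transferrin receptor, also rose there (1.18). Without 1 of the muscles of 3 DPI, non-repaired replicate 1, 184 genes were called. All 4 muscles of 3 DPI came from rats numbered 9 to 24 and 8 of the 10 of 7 DPI from rats numbered 91 and up. With rat number range added to the fit 338 genes were called, 18 higher and 320 lower, and in rats numbered 9 to 24 alone, with 2 muscles at 7 DPI, 173 were called, 22 higher and 151 lower. Rn5s was called in neither (0.73 and 0.80), and G0s2 (1.37) and Arrdc2 (-3.68) were not called in rats numbered 9 to 24 alone.

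The change differed between injured and contralateral muscle, as an interaction of day with side, for 946 of 11160 genes (8.48%), of which 707 were higher and 239 lower in injured muscle. With size factors 313 were higher and 374 lower. With rat number range added for each side 718 were called, 582 higher and 136 lower, and in rats numbered 9 to 24 alone 629 were called, 515 higher and 114 lower. Cd163 gave -0.89 in contralateral against -2.90 in injured muscle, Postn -0.70 against 3.31, and Myh3 -1.57 against 2.48. Mt2A fell in both (-1.72 and -2.23).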

How the data were processed

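RNA-Seq libraries of rat TA muscle were pseudo-aligned by the authors to the Genbank-annotated rat genome, build 6.0, with Kallisto, and the values deposited are TPM for each gene symbol. TPM were used as deposited and do not give the depth of a library. The labels also name DESeq, whose results were not used here. The table holds 16182 entries, of which the last was cut short and 16181 were used. Of 138 libraries, 9 whose labels conflict were not mapped to a group, and 13 with fewer than 7000 symbols above 1 TPM were left out. Libraries of one muscle were averaged.

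Genes with a mean above 1 TPM in at least 1 compared group were tested in R 4.3.3 by limma 3.58.1 with an intensity trend, on a log2 scale after adding 1 TPM, and repair was a covariate. Benjamini-Hochberg adjustment covered all tested genes. The code was tested on simulated data. The contrast, the 28 gene lists and the rules below were chosen with earlier results of these data known.

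Named genes were the 10 highest and 10 lowest called genes without overlap between days and with a mean above 5 TPM on the higher day. For each list they were the most abundant member, the highest and lowest called members and the most abundant member not called. Genes named by the paper, and the 3 highest and 3 lowest genes called in contralateral muscle and for the interaction with repair, were added. Other genes were chosen after their values were seen.

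Alternatives were a pseudocount of 0.1 TPM, no filter, a filter at 5 TPM, median-of-ratios size factors, all libraries kept, the adjusted p alone, each library as its own sample, no covariate, each arm alone, rats numbered 9 to 24 alone, rat number range added to the fit, rat 11 left out, one fit over all groups, no intensity trend, the rat as a block, each muscle left out in turn and, added after the data were seen, the 3 muscles of highest Hbb left out and both settings of rat number in contralateral muscle and for the interaction with side. Promoters and mature miRNAs were taken from RefSeq, build GRCr8. Python 3.11.15 and pandas 2.3.3 made the tables.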

Additional observations from a re-analysis of the deposited data

Results flagged for a closer look

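Of 312 tests of 1 gene in 1 group of muscles, 38 had a sample far from the others by Dixon's criterion, which chance alone meets in about 1 group in 20. Many of these belong to the same muscles. Replicate 5 among the minced graft muscles of 7 DPI had Ccl5 at 30.07 TPM (others 13.8 to 19.84), Clrn1 at 40.86 TPM (others 13.03 to 22.93), Fbxo32 at 218.1 TPM (others 42.49 to 123.9) and Gadd45a at 1381.9 TPM (others 365 to 639.3). It also had Igfbp5 at 1235.8 TPM (others 295.3 to 740.4), Myf6 at 477.1 TPM (others 230.1 to 343.5), Myod1 at 95.63 TPM (others 29.32 to 53.2) and Myog at 645.1 TPM (others 247.2 to 365.1). It also had Pnpla7 at 40.99 TPM (others 21.31 to 27.69), Scx at 168.9 TPM (others 86.72 to 122), Sln at 7894.9 TPM (others 3690.0 to 5063.2) and Trim63 at 330.2 TPM (others 146.7 to 209.3). Replicate 3 among the minced graft muscles of 7 DPI had Calr at 795.9 TPM (others 480.4 to 601.4), Ccl20 at 6.95 TPM (others 1.12 to 2.13), Cd68 at 289.1 TPM (others 126.9 to 190.7) and Fabp4 at 1055.7 TPM (others 526 to 758.3). It also had Lyz2 at 3439.0 TPM (others 1575.3 to 2417.2), S100a4 at 2181.8 TPM (others 1306.4 to 1682.4) and Snai1 at 70.7 TPM (others 26.87 to 38.68). Replicate 4 among the minced graft muscles of 7 DPI had Eln at 132.5 TPM (others 65.57 to 94.7), Mmp10 at 0.26 TPM (others 0.04 to 0.14) and Tnmd at 160.3 TPM (others 23.91 to 84.05). Replicate 4 among the non-repaired muscles of 7 DPI had Cd8a at 27.39 TPM (others 6.01 to 16.1), Hmox1 at 833.5 TPM (others 45.67 to 308.9) and Ifi47 at 46.93 TPM (others 15.03 to 28.77). Replicate 7 among the non-repaired muscles of 7 DPI had Eno3 at 5647.4 TPM (others 2122.2 to 3375.4), Ldha at 2633.8 TPM (others 1664.6 to 1956.5) and Tfrc at 101.8 TPM (others 42.11 to 68.64). Replicate 1 among the minced graft muscles of 3 DPI had Lox at 177 TPM (others 71.04 to 114.8) and Prg4 at 190.2 TPM (others 99.72 to 132.7). Replicate 1 among the non-repaired muscles of 7 DPI had Rn5s at 3419.1 TPM (others 11.27 to 153.8) and Scx at 65.45 TPM (others 107.6 to 133.7). Replicate 3 among the non-repaired muscles of 7 DPI had Cfi at 12.36 TPM (others 3.52 to 7.44) and Mmp13 at 39.26 TPM (others 1.08 to 16.66). Replicate 4 among the minced graft muscles of 3 DPI had Igfbp6 at 380.1 TPM (others 269.5 to 292.9). Replicate 5 among the minced graft muscles of 3 DPI had Mir6323 at 3 TPM (others 0 to 0). Replicate 7 among the minced graft muscles of 3 DPI had Scd at 15.55 TPM (others 6.01 to 8.48). Replicate 2 among the minced graft muscles of 7 DPI had Rn5s at 462.8 TPM (others 17.24 to 146.6).

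The change from 3 to 7 DPI differed between injured and contralateral muscle for 946 of 11160 genes, by the interaction of day with side in limma.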

How the results depend on the processing

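Among 14 alternatives for injured muscle that did not leave out muscles in turn, 13 gave a count within 1.5 times of 790, from 627 in rats numbered 9 to 24 alone to 1136 at a pseudocount of 0.1 TPM, where 431 genes rose. Each library as its own sample (790) and rat 11 left out (807) are not among the 14, since with 1 library for each muscle they repeat other fits. The adjusted p alone gave 6995 genes, 2541 higher and 4454 lower. Leaving out each muscle in turn gave 744 to 860. In running rats the adjusted p alone gave 6613, and size factors gave 417 higher and 422 lower in place of 333 and 536. In contralateral muscle a pseudocount of 0.1 TPM gave 628, size factors 122, all libraries kept 124 and the adjusted p alone 6967, and leaving out each muscle gave 184 to 452, the highest without replicate 2 of 3 DPI. Rats numbered 9 to 24 alone gave 173 there and 629 for the interaction with side, settings chosen after seeing the data. For the interaction with side the pseudocount gave 1469 and the adjusted p alone 6134. With the rat as a replicate block, paired because both muscles came from the same rat, it gave 939, with a correlation of -0.018 within rats. For the interaction with repair, leaving out each muscle gave 0 to 1. Size factors turned the prevailing direction in contralateral muscle, from 20 higher and 289 lower to 71 and 51, and for the interaction with side, from 707 and 239 to 313 and 374. No named gene changed sign while called. Of 104 named genes, 8 lost and 36 gained a call under at least 1 alternative. The cause of these moves was not tested. Among the called genes Acsl1, Cfi, Mylpf and Igfbp5 were also not called with all libraries kept, nor were Mmp13 and Trim63 in non-repaired muscles alone (2.14 and -1.08). TPM keeps no counts, so low values have no counting limit.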

Other observations

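The table also lists microRNA genes, whose short hairpin entries (59 to 141 bases where matched) can collect reads of a longer RNA that contains them, and the 2 sources cannot be told apart. Entries of host genes were left out. These entries were examined after their values were seen. Of 154 tested entries 32 were higher and 4 lower at 7 DPI, so 23.4% were called, against 7.14% of all tested genes. Of the 154, 46 passed the filter on low values through 1 of the 2 days alone, 8 of the 32 among them, so the counts are a description. In RefSeq 128 were found. Between Dlk1 and Dio3, 2 imprinted genes, 19 entries were tested, and 8 were higher and 0 lower. Of all tested genes 2.44% rose and 4.7% fell. Of the 8 entries, 4 passed the filter through 7 DPI alone. Mir433 was listed at 0 in all 10 muscles of 3 DPI and at 1.76 to 12.3 TPM at 7 DPI, and is 1 of those 4. Mir483, which overlaps Igf2, gave 2.40. Mir223, known from myeloid cells, fell, with a log2 difference of -1.46 (medians 141 and 53.4 TPM), and Mir142, known from blood cells, gave -1.04. Mir1b and Mir206, known from muscle, gave 1.46 and 1.16, with medians of 5.79 and 15.7 TPM and of 0 and 2.56 TPM. Of other entries known from muscle, Mir133b gave 1.01 (medians 155 and 274 TPM). Mir133a was not called (-0.86), with means of 3.27 TPM at 3 DPI and 0 at 7 DPI, and neither was Mir208b (0.50). In running rats Mir142 and Mir206 were not called (-0.20 and 0.64). Mir433, Mir483, Mir223, Mir1b and Mir133b were called there in the same direction as in non-running rats.

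The mature sequences of 4 of these are given from RefSeq (GRCr8), 5′ to 3′, with the seed, bases 2 to 8, in capitals. The last 2, from muscle, share the same seed.
rno-miR-433-3p: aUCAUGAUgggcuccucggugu
rno-miR-223-3p: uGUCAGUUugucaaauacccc
rno-miR-1b: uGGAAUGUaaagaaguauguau
rno-miR-206-3p: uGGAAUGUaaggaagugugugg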
